A study of Mus musculus with 10 samples.

Results

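Interferon-stimulated genes outside the best known Ifit, Oas and Mx families were followed in the mouse neural retina after damaging light. The set held 37 protein-coding genes, picked by symbol from the deposited table of 54532 genes. The rule itself used no measured value, but the genes were chosen with earlier results of these data known. All retinas came from 2-month-old albino BALB/c mice that had spent 12 h in the dark, and whole neural retinas were sequenced as bulk RNA. The 5 normal-light retinas (NL-1, NL-4, NL-5, NL-7 and NL-8) were then kept under 200 lux for 1 day, and the 5 light-damage retinas (LD-1, LD-4, LD-6, LD-7 and LD-8) under 15000 lux for 1 day. The strain carries no added transgene or allele in the labels, the sex of the mice is not given in the sources used here, and the comparison asked which genes differed after 1 day of intense light. Levels are given in FPKM, a count of fragments scaled by gene length and sequencing depth, so that genes of different length can be set side by side. Where 5 values are listed, they follow the order of the retinas given here.

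Interferons are secreted proteins that warn tissue of infection or damage. Type I interferon binds the receptor pair IFNAR1 and IFNAR2, the kinases JAK1 and TYK2 are activated, and a complex that contains IRF9 binds the interferon-stimulated response element (ISRE) of target promoters. Type II interferon acts through another sequence, the gamma-activated sequence (GAS), and IRF factors can bind ISRE-like letters without interferon. The products of the target genes block virus entry, modify proteins with ADP-ribose, ubiquitin or ISG15, edit or degrade nucleic acids, and tune the signal itself. In the retina such genes are known to be expressed by microglia and other immune cells, Müller glia, vessels and neurons, and bulk RNA does not separate these sources.

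The promoters of 7 genes are shown. The 3 *Ifitm* genes are neighbours that differed in their response. *Slfn8*, *Slfn9* and *Phf11b* were called higher and hold a match just before the start, and *Parp12* was called higher and holds none. The windows are from RefSeq on GRCm38.p6 and run from 250 bases before the transcription start to 50 bases after it, 300 bases in all, on the strand of the gene, and capitals mark matches to the ISRE letters GAAANNGAAA on either strand. *Ifitm1*, *Ifitm2* and *Ifitm3* lie in one cluster on chromosome 7, *Slfn8* and *Slfn9* next to each other on chromosome 11, *Phf11b* on chromosome 14 and *Parp12* on chromosome 6. The windows are chr7:140967826-140968125 (plus strand), chr7:140955912-140956211 (minus), chr7:141010695-141010994 (minus), chr11:83020761-83021060 (minus, the first of 2 overlapping windows), chr11:82991781-82992080 (minus), chr14:59341281-59341580 (minus) and chr6:39118300-39118599 (minus).
Ifitm1: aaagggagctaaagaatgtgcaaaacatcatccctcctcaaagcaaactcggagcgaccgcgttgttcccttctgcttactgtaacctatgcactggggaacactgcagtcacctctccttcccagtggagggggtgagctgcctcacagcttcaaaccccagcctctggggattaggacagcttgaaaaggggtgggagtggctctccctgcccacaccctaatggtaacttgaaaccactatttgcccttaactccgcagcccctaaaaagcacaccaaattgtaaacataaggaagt
Ifitm2: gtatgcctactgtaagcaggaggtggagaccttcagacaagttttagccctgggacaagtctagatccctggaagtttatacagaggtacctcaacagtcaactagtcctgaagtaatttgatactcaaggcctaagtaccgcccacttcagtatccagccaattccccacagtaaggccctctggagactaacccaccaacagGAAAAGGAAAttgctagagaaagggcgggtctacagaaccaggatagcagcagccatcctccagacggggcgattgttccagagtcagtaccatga
Ifitm3: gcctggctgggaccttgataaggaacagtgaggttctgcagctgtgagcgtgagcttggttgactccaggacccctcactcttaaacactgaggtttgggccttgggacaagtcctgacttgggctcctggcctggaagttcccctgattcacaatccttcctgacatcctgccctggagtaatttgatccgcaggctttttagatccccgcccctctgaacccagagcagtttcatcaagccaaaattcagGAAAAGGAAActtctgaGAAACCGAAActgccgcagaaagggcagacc
Slfn8: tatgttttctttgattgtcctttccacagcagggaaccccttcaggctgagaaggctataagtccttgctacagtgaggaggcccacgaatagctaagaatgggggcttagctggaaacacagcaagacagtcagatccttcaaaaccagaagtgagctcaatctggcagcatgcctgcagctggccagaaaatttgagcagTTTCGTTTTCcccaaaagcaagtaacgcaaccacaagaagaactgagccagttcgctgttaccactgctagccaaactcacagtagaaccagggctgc
Slfn9: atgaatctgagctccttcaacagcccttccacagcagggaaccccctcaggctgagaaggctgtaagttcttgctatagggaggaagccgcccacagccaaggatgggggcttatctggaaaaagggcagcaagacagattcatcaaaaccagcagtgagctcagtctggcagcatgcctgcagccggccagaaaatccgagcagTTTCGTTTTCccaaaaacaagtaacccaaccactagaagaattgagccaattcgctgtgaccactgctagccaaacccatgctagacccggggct
Phf11b: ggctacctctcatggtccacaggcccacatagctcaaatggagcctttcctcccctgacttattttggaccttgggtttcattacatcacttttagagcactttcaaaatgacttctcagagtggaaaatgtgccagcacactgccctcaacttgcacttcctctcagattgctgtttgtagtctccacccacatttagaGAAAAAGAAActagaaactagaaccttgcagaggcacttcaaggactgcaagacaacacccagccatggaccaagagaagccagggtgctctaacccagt
Parp12: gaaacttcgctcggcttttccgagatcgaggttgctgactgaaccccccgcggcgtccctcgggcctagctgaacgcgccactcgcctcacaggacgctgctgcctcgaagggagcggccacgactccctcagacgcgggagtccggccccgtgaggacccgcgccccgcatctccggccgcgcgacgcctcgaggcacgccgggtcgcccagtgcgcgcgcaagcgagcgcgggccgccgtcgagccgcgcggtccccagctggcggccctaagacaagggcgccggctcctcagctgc

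*Ifitm3* held 2 matches, at bases 2 to 11 and 19 to 28 after the start (the first transcribed base is 0), *Ifitm2* held 1 and *Ifitm1* none. The only *Ifitm1* window lies inside the gene, which begins at chr7:140967221 in the deposited table. The bases before that position were not searched, so *Ifitm1* cannot be compared with *Ifitm2* and *Ifitm3* in these letters. *Slfn8*, *Slfn9* and *Phf11b* each held 1 match within 50 bases before the start, and *Parp12* held none. RefSeq gave a window for 31 of the 37 genes, and *Ifi27*, *Ifi27l2a*, *Parp9*, *Parp10*, *Parp14* and *Tor3a* had no entry. The ISRE letters were found in 9 of the 31 genes (29%), beside 3.99% of the 27025 genes in the same table (3.44% of its 32851 windows). Among these 9, the matching windows of *Shisa5*, *Slfn5* and *Apobec3* also lie inside their genes by the deposited positions. The GAS letters TTCNNNGAA were found in 6 of 31 (19.4%), beside 9.55% of genes (8.3% of windows), and in *Ifitm3* they overlap the second ISRE match. A shorter core, AANNGAAA, which every ISRE match contains and which was chosen after the data were seen, was found in 23 of 31 (74.2%), beside 26.7% of genes (23.9% of windows). Some genes had several windows. Counted by window, the 45 windows of the set held ISRE letters in 10, GAS letters in 6 and the core in 26. Among the 8 genes without this core 4 were called higher after light damage (*Rnf213*, *Herc6*, *Parp12* and *Cmpk2*) and 4 were tested and not called (*Ifitm1*, *Samhd1*, *Znfx1* and *Trafd1*). *Ifitm1* is counted here only by its window inside the gene, so a core before the gene start would have been missed. Of the 23 genes with it 21 were tested and 20 of these were called higher. The calls were known when the core was chosen, so this split is a description and cannot test a link. The median log2 difference was 2.39 in the genes with ISRE letters and 2.30 in those without. A match of letters is a description of the window and not evidence of binding.

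**Figure D1:**
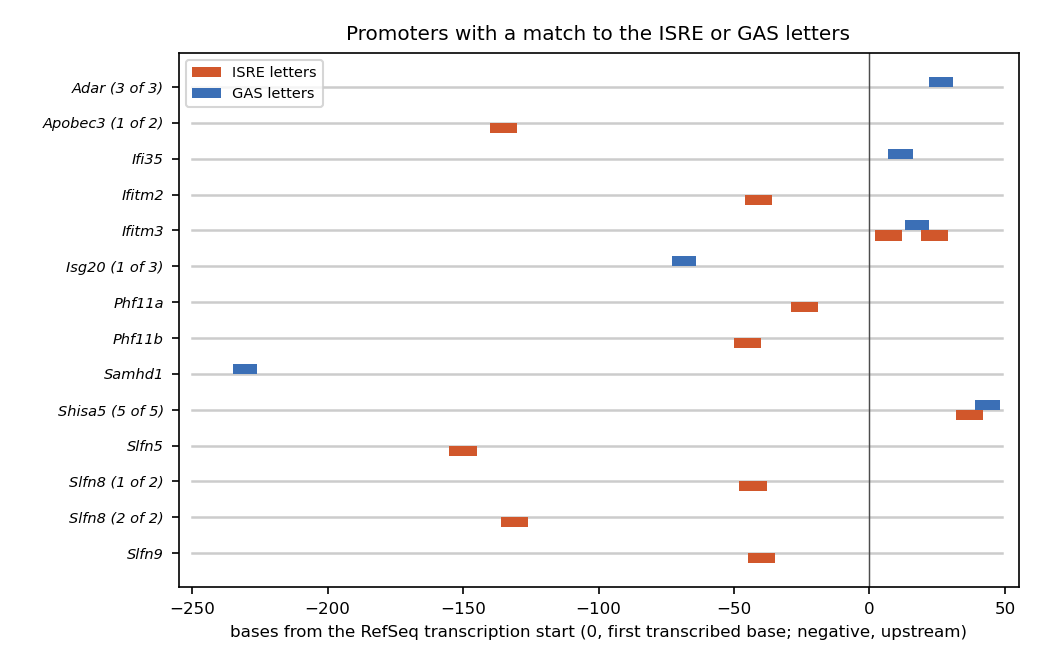
Positions of ISRE letters (orange) and GAS letters (blue) in the promoter windows that hold either, drawn from 250 bases before to 49 bases after the first transcribed base (x axis, bases). The 2 ISRE matches of *Ifitm3* lie just after the start, and those of *Slfn8*, *Slfn9*, *Phf11a* and *Phf11b* lie within 50 bases before the start in at least 1 window.

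The retinas yielded 18965090 to 26832535 reads assigned to genes. Reads of the 10 rod photoreceptor markers, rhodopsin among them, were abundant in every sample, and their summed level was 9834 to 11991 FPKM in NL and 1554 to 2989 FPKM in LD, with all 10 lower. Within each group some retinas resembled each other far more than others: NL-5 and NL-7, LD-1 and LD-7, and LD-4 and LD-6 differed by a chi-square of 2.65 to 3.65 per gene, against 12.2 to 43.4 for all other pairs of a group. These pairs still differed by more than counting error and were kept as separate retinas, and the result with each pair averaged is given in the closing section. The labels do not say whether each retina came from a different mouse, so the p-values measure the spread between these samples.

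Most of the set was higher after light damage. The genes were chosen with earlier results known, so the shares over all genes are given for description only. Of the 37 genes 35 passed the minimum of 0.1 FPKM in at least 5 retinas, and 30 of the 37 were called higher while none was called lower. A call needed a change beyond 2-fold and an adjusted p below 0.01 from limma. Among all 24508 genes tested 4.13% were called higher and 2.37% lower. With the same p and no minimum fold, 33 were higher and 1 lower, beside 9.3% and 7.74% of all genes. The groups did not overlap in 35 of the 37 genes, with LD above NL in 34 and below in 1, beside 11.8% and 10.6% of the genes tested. The median log2 difference over the 35 was 2.59, against -0.01 over all genes tested, and 14 of the 147 genes in the table with a log2 difference above 3 belonged to the set. All differences are on the scale of log2(FPKM + 0.1), which understates the fold of weakly expressed genes. In whole retinas, more cells of a type and more RNA per cell cannot be told apart, and the same holds for fewer and less.

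Some genes could pass the minimum only through the LD retinas. In 8 of the tested genes fewer than 5 NL retinas reached 0.1 FPKM, and in 2 of these, *Slfn9* and *Epsti1*, no NL retina did. The others were *Ifi27l2a*, *Isg20*, *Sp100*, *Phf11b*, *Phf11d* and *Slfn8*. All 8 are among the genes called higher, so the filter favoured these calls, and the median of 2.59 is the value of *Phf11b*. The remaining 27 tested genes reached 0.1 FPKM in all 10 retinas. The plot of levels in each retina shows the groups of points apart in the genes other than *Ifitm1* and *Phf11a*.

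**Figure D2:**
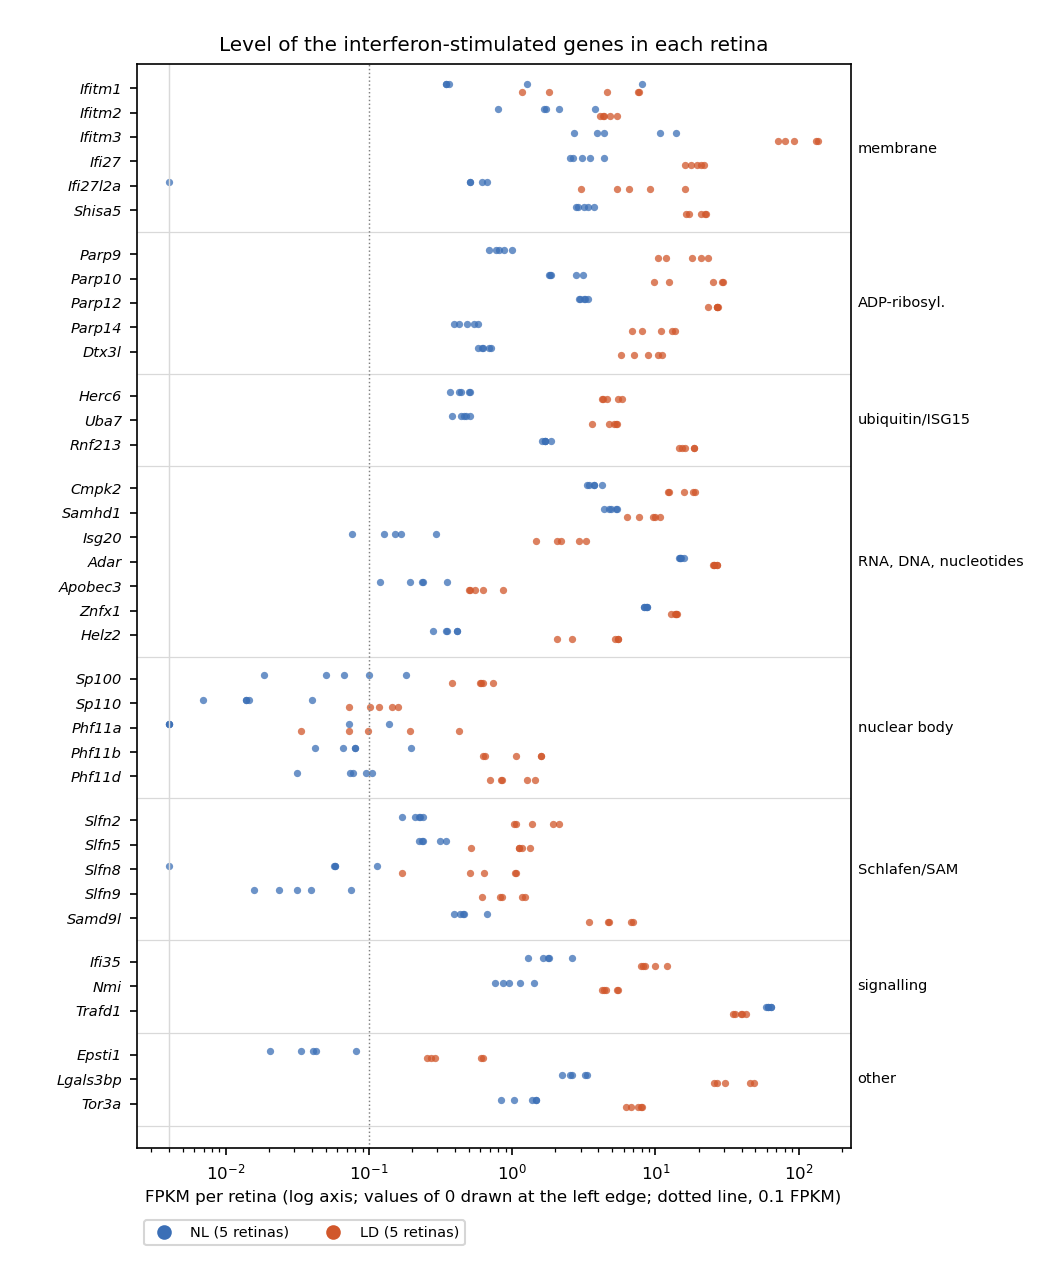
FPKM of the 37 genes in each of the 5 NL (blue) and 5 LD (orange) retinas on a log axis, grouped by role, with the dotted line at 0.1 FPKM. The LD points lie to the right of every NL point in 34 genes and to the left in *Trafd1*, and they overlap in *Ifitm1* and *Phf11a*.

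The interferon-induced transmembrane proteins restrict the fusion of viruses with cell membranes, and the 3 genes responded unequally. *Ifitm3* (chr7:141009586-141010770) was measured at 14.0, 3.89, 4.36, 2.71 and 10.7 FPKM in the NL retinas and 132, 71.4, 93.3, 137 and 80.0 FPKM in the LD retinas. Every LD retina was at least 5 times above the highest NL retina, and NL-1 and NL-8 were the highest of their group. The log2 difference was 4.06 ± 0.42 (SE, adjusted p = 5.96e-05 in limma), from a mean of 7.14 ± 4.95 FPKM (SD, n = 5) to 103 ± 30.1 FPKM (SD, n = 5), which made it the most abundant gene of the set after light damage. *Ifitm2* was measured at 3.78, 0.791, 2.11, 1.73 and 1.66 FPKM in the NL retinas and 4.07, 4.29, 4.37, 5.36 and 4.80 FPKM in the LD retinas. The groups did not overlap, but NL-1 came close to the lowest LD retina, and the difference of 1.30 ± 0.31 lay just inside the limit (adjusted p = 0.0098 in limma), which it missed under most alternatives. *Ifitm1* was measured at 8.12, 0.344, 0.360, 0.344 and 1.28 FPKM in the NL retinas and 4.57, 1.17, 7.72, 7.59 and 1.81 FPKM in the LD retinas. NL-1 was above every LD retina, and the difference of 1.87 ± 0.86 was not called (adjusted p = 0.136 in limma). Without NL-1 the difference was 2.63 with an adjusted p of 0.0117, still above the limit.

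NL-1 and NL-8, the NL retinas with the most *Ifitm1* and *Ifitm3* RNA, also had the most RNA of *Pmel* and *Tyrp1*, pigment-cell genes used as markers of the retinal pigment epithelium behind the neural retina. *Pmel* was measured at 2.02, 0.863, 0.817, 0.596 and 8.69 FPKM and *Tyrp1* at 4.23, 1.32, 0.697, 0.550 and 7.70 FPKM in the NL retinas, and at 0.716, 0.968, 0.546, 0.441 and 0.686 FPKM and 1.23, 1.08, 0.759, 0.838 and 0.556 FPKM in the LD retinas. The 10 pigment epithelium markers summed to 58.6 to 164 FPKM in NL and 63.9 to 121 FPKM in LD, none was at 0, and none was called changed. NL-8 had a higher sum of these markers (164 FPKM) than NL-1 (101 FPKM) and less *Ifitm1* and *Ifitm3* RNA. The 12 microglial markers summed to 54.9 FPKM in NL-1 and to 35.1 to 38.0 FPKM in the other NL retinas. The part of either cell type in the *Ifitm* values was not tested.

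The other 3 membrane protein genes of the set were called higher, beside 4.13% of all genes tested. *Ifi27*, which codes for a small hydrophobic protein of mitochondria and the nuclear envelope, was measured at 4.37, 3.08, 2.55, 2.66 and 3.49 FPKM in the NL retinas and 19.5, 16.0, 20.8, 21.7 and 17.7 FPKM in the LD retinas. The lowest LD value was more than 3 times the highest NL value, and the difference was 2.55 ± 0.14 (adjusted p = 7.70e-07 in limma). Its neighbour and relative *Ifi27l2a* was measured at 0.505, 0.508, 0, 0.610 and 0.670 FPKM in the NL retinas and 16.2, 5.43, 6.57, 9.20 and 3.01 FPKM in the LD retinas. The difference of 3.94 ± 0.60 (adjusted p = 0.0007 in limma) was among the widest of the set and also among the least even, because LD-1 had over 5 times the level of LD-8, and its NL values rest on 0 to 8 reads. *Shisa5*, which codes for a protein of the endoplasmic reticulum linked to p53-dependent cell death, averaged 3.20 ± 0.386 FPKM in NL and 19.9 ± 2.95 FPKM in LD (SD, n = 5 for both) and rose by 2.59 ± 0.11 (adjusted p = 1.26e-07 in limma).

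All 5 ADP-ribosylation genes were called higher, beside 4.13% of all genes tested. *Parp14* (chr16:35832874-35871544) codes for a macrodomain enzyme that adds single ADP-ribose units. It was measured at 0.578, 0.395, 0.423, 0.542 and 0.483 FPKM in the NL retinas and 6.91, 13.6, 13.0, 8.05 and 11.02 FPKM in the LD retinas. Its log2 difference of 4.14 ± 0.19 was the largest of the set at this pseudocount (adjusted p = 1.99e-07 in limma), ahead of *Parp9* by less than its error, and its mean rose 21.7-fold. The order depends on the scale, since the mean of *Slfn9*, from very few NL reads, rose 25.4-fold. *Parp9* (chr16:35938470-35972605) and *Dtx3l* (chr16:35926511-35939151) code for partners, a macrodomain protein and the ubiquitin ligase it binds. *Parp9* was measured at 0.768, 0.879, 1.00, 0.686 and 0.804 FPKM in the NL retinas and 10.5, 20.7, 23.1, 11.9 and 18.0 FPKM in the LD retinas, a difference of 4.13 ± 0.21 (adjusted p = 4.20e-07 in limma). *Dtx3l* was measured at 0.686, 0.576, 0.714, 0.625 and 0.616 FPKM in the NL retinas and 5.77, 10.4, 11.03, 7.10 and 8.93 FPKM in the LD retinas, a difference of 3.52 ± 0.17 (adjusted p = 2.41e-07 in limma). In both genes LD-1 and LD-7 had the lowest and LD-4 and LD-6 the highest values of the LD group. The 2 genes are divergent and overlap by 682 bases, 458 of them exonic, so that without strand a part of their reads cannot be assigned to one of them.

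*Parp10* codes for a mono-ADP-ribosyltransferase and was measured at 3.11, 1.87, 1.82, 1.84 and 2.79 FPKM in the NL retinas and 9.85, 29.0, 29.6, 12.5 and 25.1 FPKM in the LD retinas. LD-1 and LD-7 had much lower levels than LD-4, LD-6 and LD-8, but each exceeded all NL retinas, and the difference was 3.06 ± 0.32 (adjusted p = 6.33e-05 in limma). Its gene shares 205 exonic bases with *Plec* on the same strand, which differed by 0.61 on the log2 scale. *Parp12*, which codes for a zinc-finger enzyme of the Golgi and of stress granules, was measured at 3.24, 2.95, 2.96, 3.17 and 3.39 FPKM in the NL retinas and 23.3, 27.1, 27.2, 26.9 and 26.9 FPKM in the LD retinas. Its LD values were the tightest of the group, with LD-1 slightly below the others, and its difference of 3.02 ± 0.06 had the lowest adjusted p of the set (1.74e-09 in limma).

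Relatives outside the set show how far this went through the family. Of 15 further PARP, tankyrase and Deltex genes only *Parp3*, a nuclear enzyme of DNA break repair, was called higher, by 2.08 ± 0.17 (adjusted p = 1.24e-05 in limma). *Parp1*, the main nuclear enzyme, differed by 0.38, *Parp2* by -0.20, *Tiparp* by 0.38, *Dtx1* by 0.10 and *Dtx3* by -0.09, all under 2-fold. *Parp11* (0.31) and *Parp16* (0.61) also stayed under 2-fold. Across all families 48 relatives were listed and 41 tested, and 3 were called higher and 1 lower, beside 4.13% and 2.37% of all genes tested. The others called higher were *Apobec1* (2.97 ± 0.19), an RNA-editing deaminase, and *Aen* (1.03 ± 0.08), an exonuclease related to *Isg20*, and *Herc3* was lower (-1.03 ± 0.09). *Aen* and *Herc3* lie at the 2-fold limit and lost the call under other settings. With the p limit alone 9 relatives were higher and 5 lower, beside 9.3% and 7.74% of all genes tested. The plot of families sets these side by side.

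**Figure D3:**
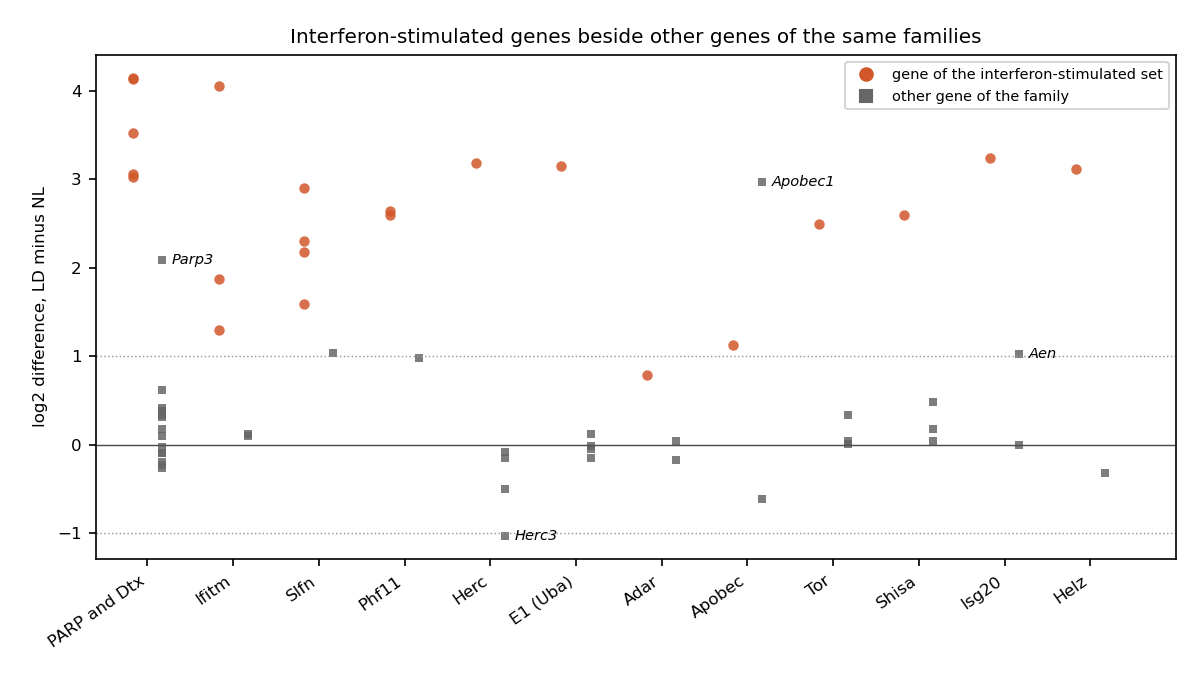
Log2 difference, LD minus NL, for genes of the set (orange circles) beside tested relatives of the same family (grey squares), with dotted lines at 2-fold. In each family drawn the genes of the set lie above their relatives, except that *Apobec1* lies above *Apobec3* (2.97 against 1.13), and *Parp3* at 2.08 stands apart from the other PARP and Deltex relatives, between -0.26 and 0.61.

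The genes of ISG15 and ubiquitin conjugation rose by nearly the same amount. *Uba7* codes for the enzyme that activates the ubiquitin-like protein ISG15, and *Herc6* for the main ISG15 ligase of the mouse. *Uba7* was measured at 0.461, 0.507, 0.442, 0.479 and 0.377 FPKM in the NL retinas and 4.76, 5.11, 5.31, 5.37 and 3.63 FPKM in the LD retinas, a difference of 3.15 ± 0.13 (adjusted p = 8.97e-08 in limma). *Herc6* was measured at 0.423, 0.441, 0.509, 0.497 and 0.367 FPKM in the NL retinas and 4.26, 5.88, 5.45, 4.598 and 4.30 FPKM in the LD retinas, a difference of 3.19 ± 0.13 (adjusted p = 7.51e-08 in limma). Neither group of values came near the other in these 2 genes. *Rnf213*, which codes for a very large ubiquitin ligase with AAA ATPase domains, averaged 1.70 ± 0.0962 FPKM in NL and 16.7 ± 1.82 FPKM in LD (SD, n = 5 for both) and rose by 3.21 ± 0.08 (adjusted p = 5.59e-09 in limma). Their family relatives *Uba1* (0.12), which activates ubiquitin, *Herc1* (-0.15) and *Herc2* (-0.08) were not called. *Isg15* itself, the protein these enzymes attach, rose by 4.54 ± 0.22 (adjusted p = 2.56e-07 in limma), and *Usp18*, which removes it and also restrains the receptor, by 5.08 ± 0.22 (adjusted p = 1.15e-07 in limma).

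Genes acting on nucleotides, RNA and DNA differed by 0.67 to 3.24 on the log2 scale. Of these, 4 of 7 were called higher, beside 4.13% of all genes tested. *Isg20*, a 3′ to 5′ exonuclease, was measured at 0.0754, 0.127, 0.291, 0.152 and 0.167 FPKM in the NL retinas and 3.29, 1.46, 2.04, 2.93 and 2.17 FPKM in the LD retinas. The NL values rest on 3 to 11 reads, and the difference was 3.24 ± 0.26 (adjusted p = 1.05e-05 in limma). *Helz2*, a helicase and nuclear receptor coactivator, was measured at 0.349, 0.282, 0.342, 0.409 and 0.414 FPKM in the NL retinas and 2.06, 5.45, 5.48, 2.60 and 5.25 FPKM in the LD retinas. LD-1 and LD-7 were again low within LD, and the difference was 3.12 ± 0.28 (adjusted p = 2.13e-05 in limma). *Cmpk2*, a mitochondrial nucleotide kinase, already had 3.67 ± 0.352 FPKM in NL (SD, n = 5) and rose to 15.6 ± 3.20 FPKM in LD (SD, n = 5), a difference of 2.04 ± 0.13 (adjusted p = 2.26e-06 in limma). *Apobec3*, a cytidine deaminase that mutates viral DNA, had 0.237, 0.194, 0.349, 0.120 and 0.234 FPKM in the NL retinas and 0.547, 0.626, 0.861, 0.502 and 0.509 FPKM in the LD retinas. Its difference of 1.13 ± 0.22 (adjusted p = 0.00356 in limma) lay close to the 2-fold limit and lost the call without NL-7 or without LD-4.

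The 3 genes of this role that were not called were among the genes with the highest NL levels in the set. *Adar*, the adenosine deaminase that edits double-stranded RNA, was measured at 14.7, 15.9, 15.1, 14.8 and 14.9 FPKM in the NL retinas and 25.6, 25.8, 25.4, 27.0 and 26.9 FPKM in the LD retinas. The groups were far apart relative to their spread, but the difference of 0.79 ± 0.04 (adjusted p = 2.16e-07 in limma) was under 2-fold. Its relatives *Adarb1* (0.05) and *Adarb2* (-0.18) were not called, and *Chrnb2*, which overlaps 1365 exonic bases of *Adar* on the other strand, differed by 0.08. *Znfx1*, an RNA helicase that senses viral RNA, averaged 8.56 ± 0.215 FPKM in NL and 13.7 ± 0.467 FPKM in LD (SD, n = 5 for both) and was higher by 0.67 ± 0.04 (adjusted p = 1.07e-06 in limma). *Samhd1*, which breaks down deoxynucleotides, was measured at 4.76, 4.89, 5.33, 5.38 and 4.41 FPKM in the NL retinas and 6.32, 9.998, 9.56, 7.71 and 10.8 FPKM in the LD retinas. Its lowest LD retina was LD-1, and the difference of 0.81 ± 0.14 (adjusted p = 0.00133 in limma) reached 2-fold, at 1.02, when LD-1 and LD-7 were left out.

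Genes of nuclear bodies and chromatin were rare in NL. *Sp100*, a founding component of PML nuclear bodies, was measured at 0.0186, 0.0498, 0.183, 0.0997 and 0.0667 FPKM in the NL retinas and 0.738, 0.607, 0.627, 0.599 and 0.381 FPKM in the LD retinas. All LD values exceeded all NL values, and the difference was 1.95 ± 0.26 (adjusted p = 0.000278 in limma). The PHD-finger genes *Phf11b* and *Phf11d* lie near each other on chromosome 14. *Phf11b* was measured at 0.197, 0.0795, 0.0416, 0.0796 and 0.0655 FPKM in the NL retinas and 1.59, 0.625, 1.06, 1.59 and 0.645 FPKM in the LD retinas, a difference of 2.59 ± 0.31 (adjusted p = 0.000151 in limma). *Phf11d* was measured at 0.104, 0.0314, 0.0767, 0.0733 and 0.0948 FPKM in the NL retinas and 1.28, 0.702, 0.845, 1.43 and 0.829 FPKM in the LD retinas, a difference of 2.64 ± 0.23 (adjusted p = 1.57e-05 in limma). Their NL values rest on 1 to 11 reads, and LD-1 and LD-7 were the highest LD retinas in both. Their relative *Phf11c*, more abundant in NL at 1.32 ± 0.191 FPKM (SD, n = 5), differed by 0.97 ± 0.15 (adjusted p = 0.000851 in limma) and just missed 2-fold. These genes are close copies of each other, and how reads that match several of them were counted is not given in the sources used here.

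*Sp110* and *Phf11a* did not reach the minimum and were not tested in the model. *Sp110*, a nuclear body gene linked to resistance to intracellular bacteria, was measured at 0.00690, 0.0139, 0.0145, 0.0139 and 0.0400 FPKM in the NL retinas and 0.145, 0.102, 0.158, 0.117 and 0.0729 FPKM in the LD retinas. The groups did not overlap (p = 0.00794 by an exact permutation test, two-sided, which is the floor for 5 against 5), on 1 to 7 reads in NL and 11 to 24 in LD. *Phf11a* was measured at 0.138, 0, 0.0728, 0 and 0 FPKM in the NL retinas and 0.424, 0.0728, 0.0990, 0.195 and 0.0332 FPKM in the LD retinas. Its groups overlapped (p = 0.0952 by the same exact test), and no retina had more than 14 reads, so a difference was not detectable at this depth.

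Schlafen genes restrain cell growth and, in the long forms, virus replication. They rose together with *Samd9l*, a gene for an endosomal and antiviral protein with a sterile alpha motif. In this group 5 of 5 were called higher, beside 4.13% of all genes tested. *Samd9l* was measured at 0.431, 0.451, 0.463, 0.391 and 0.664 FPKM in the NL retinas and 6.79, 4.73, 4.63, 6.93 and 3.45 FPKM in the LD retinas. The difference was 3.19 ± 0.20 (adjusted p = 1.92e-06 in limma), with LD-1 and LD-7 highest and LD-8 lowest of the LD group. *Slfn9* (chr11:82978390-82991830) was measured at 0.0235, 0.0316, 0.0743, 0.0158 and 0.0390 FPKM in the NL retinas and 1.17, 0.612, 0.824, 1.22 and 0.851 FPKM in the LD retinas. With 2 to 9 reads per NL retina its difference of 2.90 ± 0.22 (adjusted p = 5.76e-06 in limma) depends on the pseudocount. *Slfn8* (chr11:83002158-83020810) was measured at 0.114, 0.0575, 0, 0.0576 and 0.0569 FPKM in the NL retinas and 1.06, 0.169, 0.634, 1.05 and 0.505 FPKM in the LD retinas. LD-4 lay far below the rest of the LD group and close to NL-1, and the difference was 2.18 ± 0.40 (adjusted p = 0.00214 in limma). *Slfn2*, the short form that keeps T cells quiescent, rose by 2.30 ± 0.22 (adjusted p = 3.02e-05 in limma), and *Slfn5* by 1.59 ± 0.24 (adjusted p = 0.000655 in limma). Of the further Schlafen genes *Slfn3* differed by 1.04 ± 0.37 and was not called, and *Slfn1*, *Slfn4* and *Slfn10-ps* stayed below the minimum for testing. In these 3 genes the LD values still lay above every NL value (p = 0.00794 in each by an exact permutation test, two-sided). *Slfn1* had 0 reads in NL and 2 to 7 in LD, *Slfn4* 0 to 1 and 8 to 30, and *Slfn10-ps* 0 to 2 and 3 to 10.

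The signalling modulators moved in both directions. *Ifi35* and *Nmi* code for partners that bind each other and modulate interferon and cytokine signalling. *Ifi35* was measured at 1.79, 1.28, 2.60, 1.80 and 1.64 FPKM in the NL retinas and 7.88, 9.88, 12.0, 8.47 and 8.14 FPKM in the LD retinas, a difference of 2.30 ± 0.17 (adjusted p = 5.95e-06 in limma). *Nmi* was measured at 0.865, 1.13, 1.43, 0.753 and 0.949 FPKM in the NL retinas and 5.45, 4.53, 5.41, 4.39 and 4.22 FPKM in the LD retinas, a difference of 2.15 ± 0.16 (adjusted p = 5.23e-06 in limma). The lowest LD retina had more than 2 times the level of the highest NL retina in both genes. *Trafd1* (chr5:121371725-121385632), which codes for a zinc-finger protein that dampens innate signalling, was the only gene of the set that was lower. It was measured at 60.9, 58.8, 63.7, 61.0 and 64.2 FPKM in the NL retinas and 35.01, 39.8, 40.0, 35.8 and 42.6 FPKM in the LD retinas. All LD retinas lay below all NL retinas, and the difference of -0.68 ± 0.06 (adjusted p = 1.57e-05 in limma) was under 2-fold. In NL it was the most abundant gene of the set, at 61.7 ± 2.22 FPKM (SD, n = 5).

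Of the remaining genes *Lgals3bp*, which codes for a secreted glycoprotein that binds galectins, was measured at 3.20, 2.23, 2.60, 2.53 and 3.31 FPKM in the NL retinas and 45.7, 26.7, 30.7, 48.6 and 25.8 FPKM in the LD retinas. The difference was 3.59 ± 0.19 (adjusted p = 6.27e-07 in limma), and LD-1 and LD-7 stood well above the other LD retinas. *Tor3a*, a torsin ATPase of the endoplasmic reticulum, rose by 2.50 ± 0.15 (adjusted p = 1.55e-06 in limma), from 1.23 ± 0.286 to 7.32 ± 0.799 FPKM (SD, n = 5 each), while *Tor1a* (0.05) and *Tor1b* (0.01) were not called and *Tor2a* (0.34) stayed under 2-fold. *Epsti1*, first known from the contact of epithelium and stroma, was measured at 0.0806, 0.0203, 0.0424, 0.0406 and 0.0334 FPKM in the NL retinas and 0.601, 0.255, 0.289, 0.624 and 0.271 FPKM in the LD retinas. The difference was 1.76 ± 0.26 (adjusted p = 0.000591 in limma), on 1 to 4 reads per NL retina. The plot of differences with their errors shows values above 3 for 14 genes and from 1 to 3 for most others. *Samhd1*, *Adar*, *Znfx1* and *Trafd1* lie below 1. These limits are for description only.

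**Figure D4:**
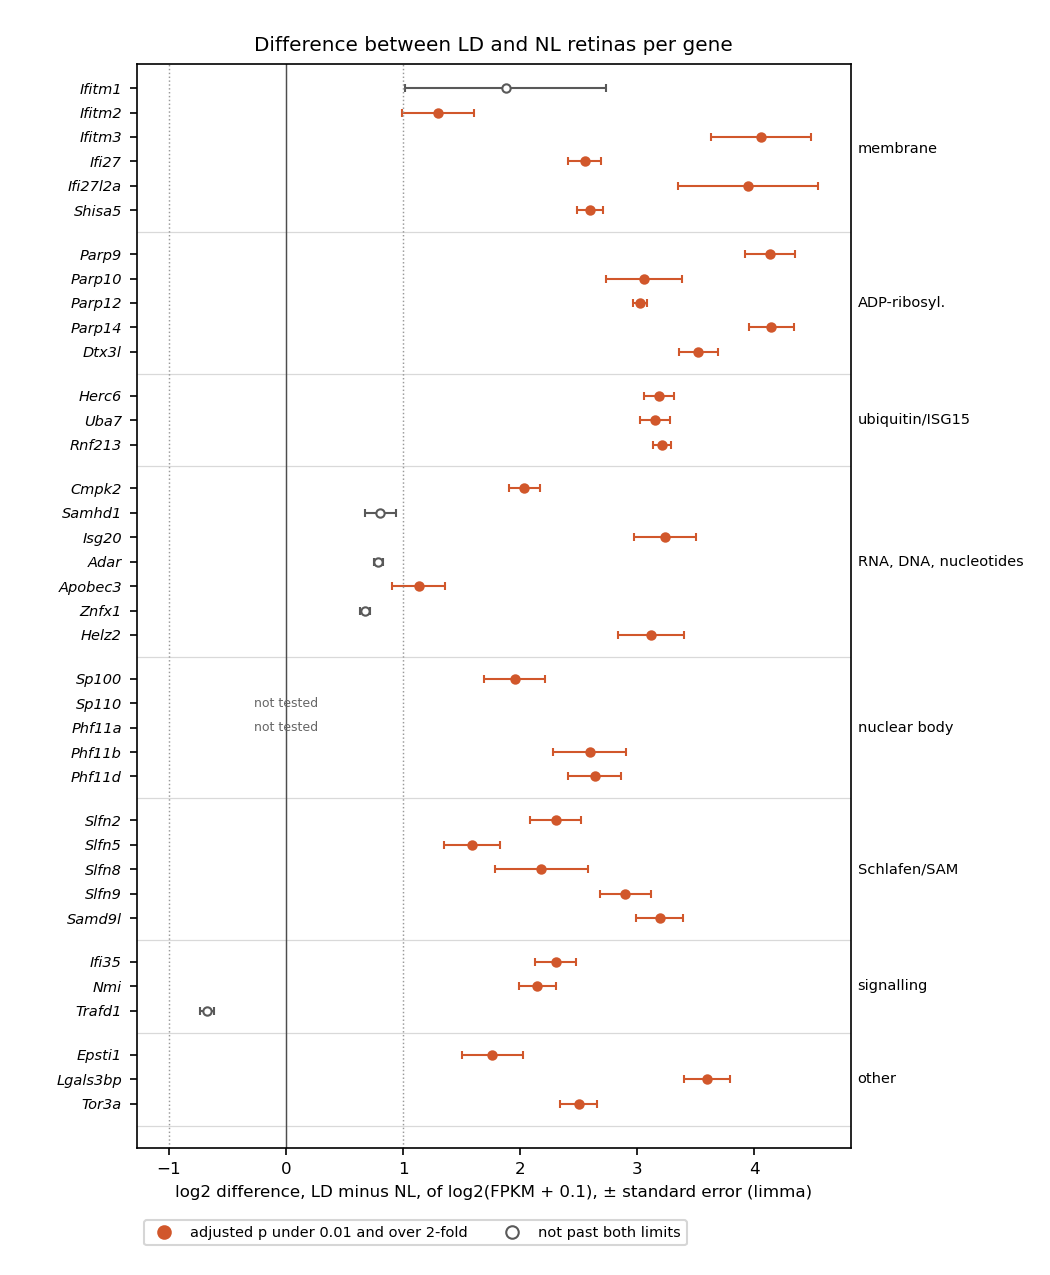
Log2 difference, LD minus NL, with its standard error for the 35 tested genes, grouped by role, with dotted lines at 2-fold in either direction. Filled orange points passed an adjusted p of 0.01 and 2-fold, and the open points are *Ifitm1*, *Samhd1*, *Adar*, *Znfx1* and *Trafd1*.

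The LD retinas were not alike in the set. LD-1 and LD-7 had the 2 highest LD values in 12 of the 35 tested genes (34.3%) and the 2 lowest in 9 (25.7%), where over all genes tested these shares were 21.6% and 19.9%, so that the second share is near the background. Of the 8 roles only ADP-ribosylation and the Schlafen group went one way in every gene, and each other role had at least 1 gene that did neither. All 5 ADP-ribosylation genes, *Helz2*, *Samhd1*, *Cmpk2* and *Trafd1* were lowest in LD-1 and LD-7, in *Parp12* by rank only, since LD-7 and LD-8 were nearly equal there. All 5 genes of the Schlafen and *Samd9l* group, *Ifitm3*, *Ifi27l2a*, *Lgals3bp*, *Isg20*, *Phf11b*, *Phf11d* and *Epsti1* were highest there. The mean log2 difference of LD-1 and LD-7 from the other 3 LD retinas ran from -1.32 in *Parp10* and -1.18 in *Helz2* to 1.23 in *Slfn8* and 1.34 in *Ifi27l2a*. *Adar* (0.01), *Znfx1* (-0.04) and *Nmi* (0.06) did not divide in this way. LD-1 and LD-7 are also one of the closest pairs over all genes, so that this division rests on few independent retinas, and it was described after the values were seen, with no test.

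**Figure D5:**
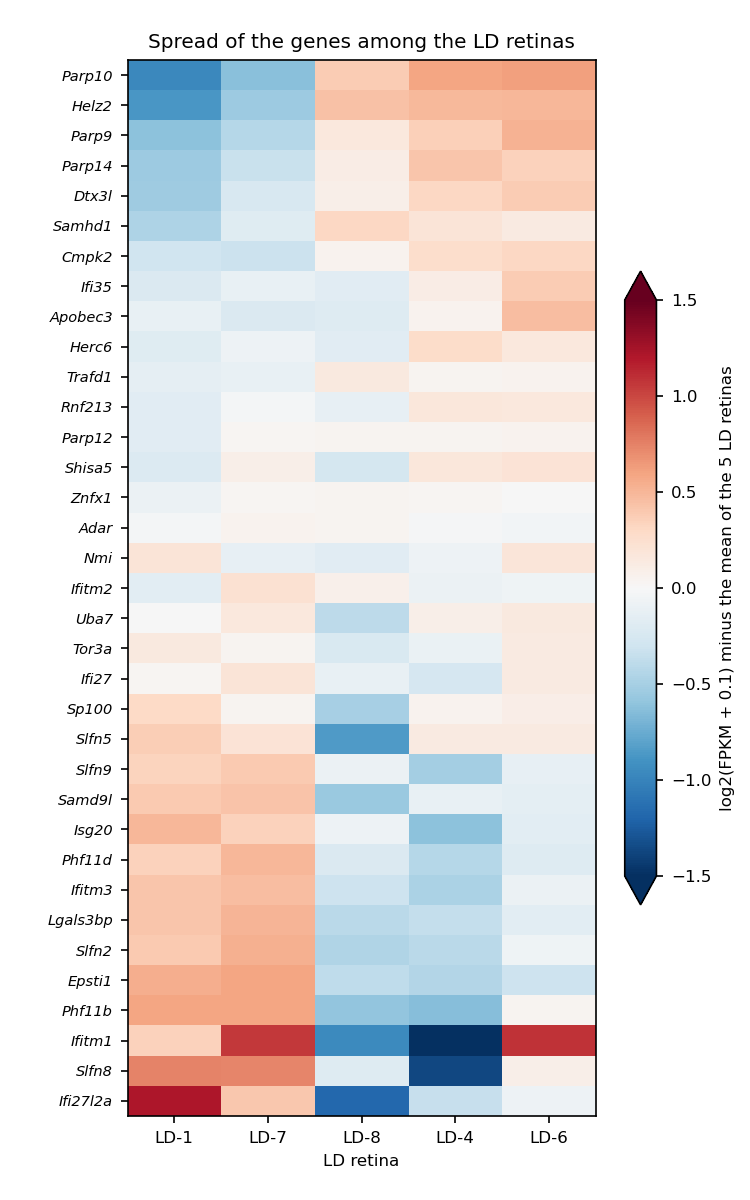
Log2(FPKM + 0.1) of each tested gene in each LD retina minus the mean of the 5 LD retinas (colour, red higher and blue lower), ordered by the difference between LD-1 and LD-7 and the other 3. *Parp10* (-1.32) and *Helz2* (-1.18) stand at the top, low in LD-1 and LD-7, and *Slfn8* (1.23) and *Ifi27l2a* (1.34) at the bottom.

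Many microglial markers, but not all, differed between the groups, and most followed this division. Over all genes tested, beside every marker count here, 4.13% were called higher and 2.37% lower. LD-1 and LD-7 were highest in 21.6% of all genes tested and lowest in 19.9%. Of 12 markers 12 were tested and 7 were called higher, among them *C1qa* (1.86), *C1qb* (2.15) and *Fcrls* (3.18), while *Tmem119* (0.22), *P2ry12* (-0.74) and *Siglech* (-0.63) were not. Their summed level was 35.1 to 54.9 FPKM in NL and 68.8 to 163 FPKM in LD, and none was at 0. LD-1 and LD-7 were highest in 10 of the 12, for example *C1qa* at 54.5, 32.3, 32.6, 45.3 and 21.7 FPKM in the LD retinas. Markers of blood-borne leukocytes stayed near 0, with 5 of 16 tested and 1 called higher, a summed level of 0.535 to 1.26 FPKM in NL and 1.22 to 2.13 FPKM in LD, and *Ms4a1* at 0 in all retinas. Of 10 Müller glia markers 1, *Glul*, was called lower and none higher, and 5 were lowest in LD-1 and LD-7. Of 10 endothelial markers 1 was called higher and 4 were lowest in LD-1 and LD-7, as were 5 of the 10 pigment epithelium markers. All 10 rod markers averaged higher in LD-1 and LD-7 than in the other 3 LD retinas, by 0.29 to 0.88 on the log2 scale, but their summed level of 2986 FPKM in LD-1 and 2513 FPKM in LD-7 stood beside 1554 FPKM in LD-4, 1647 FPKM in LD-6 and 2989 FPKM in LD-8. The part of these cells in the response of the set was not tested.

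Other genes of the interferon pathway, which need not act upstream of the set, were measured in the same retinas. Of 30 genes for interferons, receptors, kinases, transcription factors, sensors and inhibitors 27 were tested. Of these 16 were called higher and none lower, beside 4.13% and 2.37% of all genes tested. Among the factors that bind target promoters *Stat2* rose by 2.06 ± 0.07, *Irf9* by 2.89 ± 0.10, *Irf7* by 3.90 ± 0.27, *Irf1* by 3.52 ± 0.20 and *Irf8* by 3.24 ± 0.15. So did the RNA sensors *Ddx58* (3.82 ± 0.15) and *Ifih1* (3.65 ± 0.24) and the inhibitors *Socs1* (3.10 ± 0.19) and *Socs3* (4.46 ± 0.22). Receptors and kinases changed little, with *Ifnar1* at 0.08, *Ifngr1* at -0.09, *Ifngr2* at 0.44, *Jak1* at -0.07, *Jak2* at 0.11 and *Tyk2* at 0.03, none of them called, and *Ifnar2* higher by 1.12 ± 0.16. *Stat3* (1.85), *Tmem173* (1.17) and *Mb21d1* (1.31), the last 2 coding for the DNA-sensing proteins STING and cGAS, were also called higher, while *Irf2* (0.74) was higher and *Irf3* (-0.32) and *Mavs* (-0.32) lower by less than 2-fold. With a pseudocount of 1 the calls of *Ifnar2*, *Tmem173* and *Mb21d1* were lost and 13 pathway genes were called, and the latter 2 were also lost with close pairs averaged or with a replicate block. *Mb21d1* rests on 3 to 10 reads per NL retina. The 3 interferon genes on the list were almost without reads, and other interferon genes were not examined. *Ifnb1* had 3 reads in LD-7, *Ifna4* 1 read in LD-6 and *Ifng* 1 read in LD-1, and no read was found in any other retina, so a difference was not detectable at this depth.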

How the data were processed

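Bulk RNA-seq of 10 neural retinas was analysed, 5 NL and 5 LD by their labels. The labels give TRIzol RNA and a TruSeq RNA kit, and the paper gives paired reads of 150 bases. The submitters' processing notes name Bowtie2 2.0.6, TopHat2 2.0.9 and build mm8, but the positions in the table are on GRCm38: 54409 of 54532 identifiers are in GENCODE M21 and 53499 have the same position there. The counting program and its strand setting are not given in the sources used here. The authors deposited FPKM values, already scaled by a factor per retina (0.951 to 0.968 in NL and 1.04 to 1.07 in LD). FPKM times gene length gave whole multiples of 1 read for 100% of values (tolerance 0.01), which gives the depth. No column was left unmapped.

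Here a gene was tested if 5 or more retinas reached 0.1 FPKM, which 24508 genes did. Values of log2(FPKM + 0.1) were compared without a block in limma 3.58.1 under R 4.3.3, using its intensity trend, and p-values were adjusted by the Benjamini-Hochberg method across those genes. A gene was called at an adjusted p under 0.01 and over 2-fold. Errors are standard errors unless given as SD. Exact permutation tests went through every split of the 10 retinas into 5 and 5, with numpy 2.4.6 under Python 3.11.15. All 37 genes are named, with the pathway genes that were called or that belong to receptors, kinases, STAT and IRF factors, relatives of the same families and markers beside a result, except that some genes are not reported here. The genes, lists and tests were chosen with earlier results of these data known. Counting error limits genes with few reads. Of the alternatives 24 were planned and 2 added after the data were seen. The model was checked on simulated data.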

Additional observations from a re-analysis of the deposited data

Results flagged for a closer look

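Among 134 groups of 5 retinas examined, 11 had 1 retina far from the other 4 by Dixon's test, where chance gives about 6.7. In NL, *Ifitm1* in NL-1 was at 8.12 FPKM (others 0.344 to 1.28), *Phf11b* in NL-1 at 0.197 FPKM (0.0416 to 0.0796), *Samd9l* in NL-8 at 0.664 FPKM (0.391 to 0.463) and *Sp110* in NL-8 at 0.0400 FPKM (0.00690 to 0.0145). *Ifi27l2a* in NL-5 was at 0 FPKM (0.505 to 0.670). In LD, *Parp12* in LD-1 was at 23.3 FPKM (26.9 to 27.2) and *Slfn5* in LD-8 at 0.511 FPKM (1.11 to 1.33). Of the pathway genes, *Tbk1* in LD-8 was at 18.4 FPKM (21.6 to 22.6). *Ifnb1* in LD-7 was at 0.176 FPKM, *Ifna4* in LD-6 at 0.0797 FPKM and *Ifng* in LD-1 at 0.0317 FPKM, with the other 4 LD retinas at 0. No retina held more than 2 of the 11.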

How the results depend on the processing

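The count of 30 genes called higher was 21 to 30 under the alternatives with the same limits, 28 to 30 with any 1 retina left out, and 0 were called lower throughout. It was 21 with a pseudocount of 1 and 27 with the 3 close pairs averaged. In all, 21 genes kept the call under every alternative. The call of *Ifitm2* was lost under most (adjusted p up to 0.0712 in limma), and *Apobec3*, *Sp100*, *Phf11b*, *Phf11d*, *Slfn5*, *Slfn8*, *Slfn9* and *Epsti1* lost it with a pseudocount of 1. No direction of a gene in the set reversed. The median difference of 2.59 was 1.81 with a pseudocount of 1, 3.06 with 0.01 and 3.02 with a minimum of 1 FPKM. It was 3.14 in TPM, 3.09 in limma-voom on the recovered reads, and 2.50 to 2.66 with 1 retina left out. For scale, the median log2 level of the tested genes in each retina had an SD of 0.206 within groups, which is not an error of the difference. TPM and removal of the authors' factor shifted the median of all genes by 0.10 and 0.12. The relatives called rose from 4 to 14 without the minimum fold and to 18 at an adjusted p of 0.05. With *Sp110* and *Phf11a* fitted without a minimum, their differences were 0.89 (adjusted p = 0.00203 in limma) and 0.82 (adjusted p = 0.213 in limma).

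The groups share the numbers 1, 4, 7 and 8, but same-numbered retinas did not deviate together (correlations over genes of 0.0575, 0.0656, -0.0121 and -0.0893), so the numbers were not taken to pair them. With a replicate block over these 8 retinas 24 genes of the set were called higher, against 28 in the same retinas without the block. Microglial markers called fell from 7 to 4 with the block or a pseudocount of 1, and to 2 with close pairs averaged, and without LD-1 and LD-7 5 were called higher and 2, *P2ry12* and *Siglech*, lower. The NL values of weak genes rest on few reads, while the widest standard error of the set, 0.86, was that of *Ifitm1*, which had 8 to 190 NL reads.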

Other observations

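Pathway genes also differed among the LD retinas. LD-1 and LD-7 were highest in 8 of the 27 tested pathway genes (29.6%) and lowest in 6 (22.2%), beside 21.6% and 19.9% of all genes tested, so that these shares are near the background. *Irf1* (10.8, 22.4, 20.6, 12.4 and 18.9 FPKM in the LD retinas), *Irf7* (22.8, 46.3, 45.6, 28.0 and 44.4 FPKM) and *Ifih1* (3.25, 7.51, 6.61, 3.55 and 5.82 FPKM) were lowest in LD-1 and LD-7, as the ADP-ribosylation genes were. *Isg15* (42.4, 25.6, 27.4, 40.7 and 20.98 FPKM), *Usp18* (20.8, 14.9, 16.7, 21.02 and 16.3 FPKM) and *Socs3* (70.8, 37.5, 40.6, 72.5 and 33.7 FPKM) were highest there, as the Schlafen genes and *Ifitm3* were. Each of these LD values exceeded every NL value of the same gene. The division is a description of 5 retinas and its cause was not tested.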
